A study of Mus musculus with 27 samples.

Results

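The 10 genes described here direct or mark the first steps of cartilage, bone and tendon formation, and were followed through a mouse series on limb buds made from embryonic stem (ES) cells. They are Sox5, Sox6 and Sox9, the 3 Runx genes Runx1, Runx2 and Runx3, and the tendon genes Scx, Mkx, Tnmd and Tnc, taken by name as 10 of the 23279 genes in the table of counts per 1000000 reads (CPM). The study compared mesenchyme of limb bud organoids (ES–LBs) with embryonic limb buds (LBs) by RNA-seq. ES–FLB and ES–HLB are the forelimb and hindlimb forms on day 9 of culture. Both came from 1 ES line, EB5, with 1 Hand2 allele carrying GFP (Hand2::GFP +/-), so every organoid library descends from that line. All aggregates were grown with BMP4 and Matrigel, and later with the glucocorticoid hydrocortisone, methylcellulose, the BMP inhibitor LDN193189 and Wnt3. ES–FLB aggregates received retinoic acid (RA) and ES–HLB aggregates an RA antagonist, and cells positive for the Hand2 reporter were then sorted by FACS.

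The embryonic groups were forelimb buds (FLBs) and hindlimb buds (HLBs) at an early stage and at E10.5, with 3 tissues outside the limb at E10.5, namely branchial arch (BA), tail bud (TB) and heart (Ca), all of untreated Slc:ICR embryos. These tissues were cut off whole and, as far as the methods state, not sorted, so they held ectoderm, vessels and blood beside mesenchyme. Both early groups are labelled E10.0, while the study's text gives an earlier stage for the FLBs and a later one for the HLBs. They are therefore called early here. Under the text's stages, limb type and age cannot be told apart in the early groups. The step to E10.5 is then also longer in the FLBs than in the HLBs. Each of the 9 groups had 3 libraries, and the sources do not say that replicates were separate cultures or litters, so p-values measure the spread between these libraries, which may be in part technical.

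Sox9, a transcription factor of the SRY-box family, switches on cartilage collagen genes in condensing mesenchyme, and Sox5 and Sox6 bind beside it and raise its effect. The Runx factors share a DNA-binding domain and the partner Cbfb. Runx2 is needed for bone formation, Runx3 acts with it in cartilage maturation, and Runx1 is best known from blood but is also found in early skeletal mesenchyme. Scx is the early factor of tendon and ligament progenitors, Mkx acts later in tendon growth, Tnmd encodes tenomodulin, a membrane protein of maturing tendon, and Tnc encodes tenascin-C, a matrix glycoprotein of tendon and of many developing tissues.

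Replicate 2 of the E10.5 HLBs was left out, because it listed 99.6% or more of the expressed genes of chromosomes 5, 6, 7, 8, 9 and X at 0, among them Sox5, Sox6 and Tnmd. This left 26 libraries, with 2 for the E10.5 HLBs. As estimated from the smallest step between values, the 26 libraries hold 5543757 to 22142306 reads, with the early LBs deepest (at least 19642246) and the E10.5 LBs least deep. A count of 0 allows up to 3 reads, which correspond to 0.135 to 0.541 CPM (counting error only). Replicate 1 of the early HLBs stood apart, lying 26.0% of the way from the early to the E10.5 HLBs over 12438 genes that are not members, against −7.16% and −1.01% for the other two. Limb mesenchyme markers summed to 1590–2230 CPM in the LBs and 1950–2090 CPM in the ES–LBs. Blood markers summed to at most 14.2 CPM in ES–FLB, 111 CPM in ES–HLB and 1480–4700 CPM in the LBs, and endothelial markers to 28.1–50.0 CPM in the ES–LBs and 324–482 CPM in the LBs. Surface ectoderm markers summed to 86.2–161 CPM in the ES–LBs and 246–346 CPM in the LBs, and neural tube markers to 12.6–28.9 and at most 1.48 CPM. In these bulk samples, fewer cells of a type and less RNA per cell cannot be told apart.

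**Figure D1:**
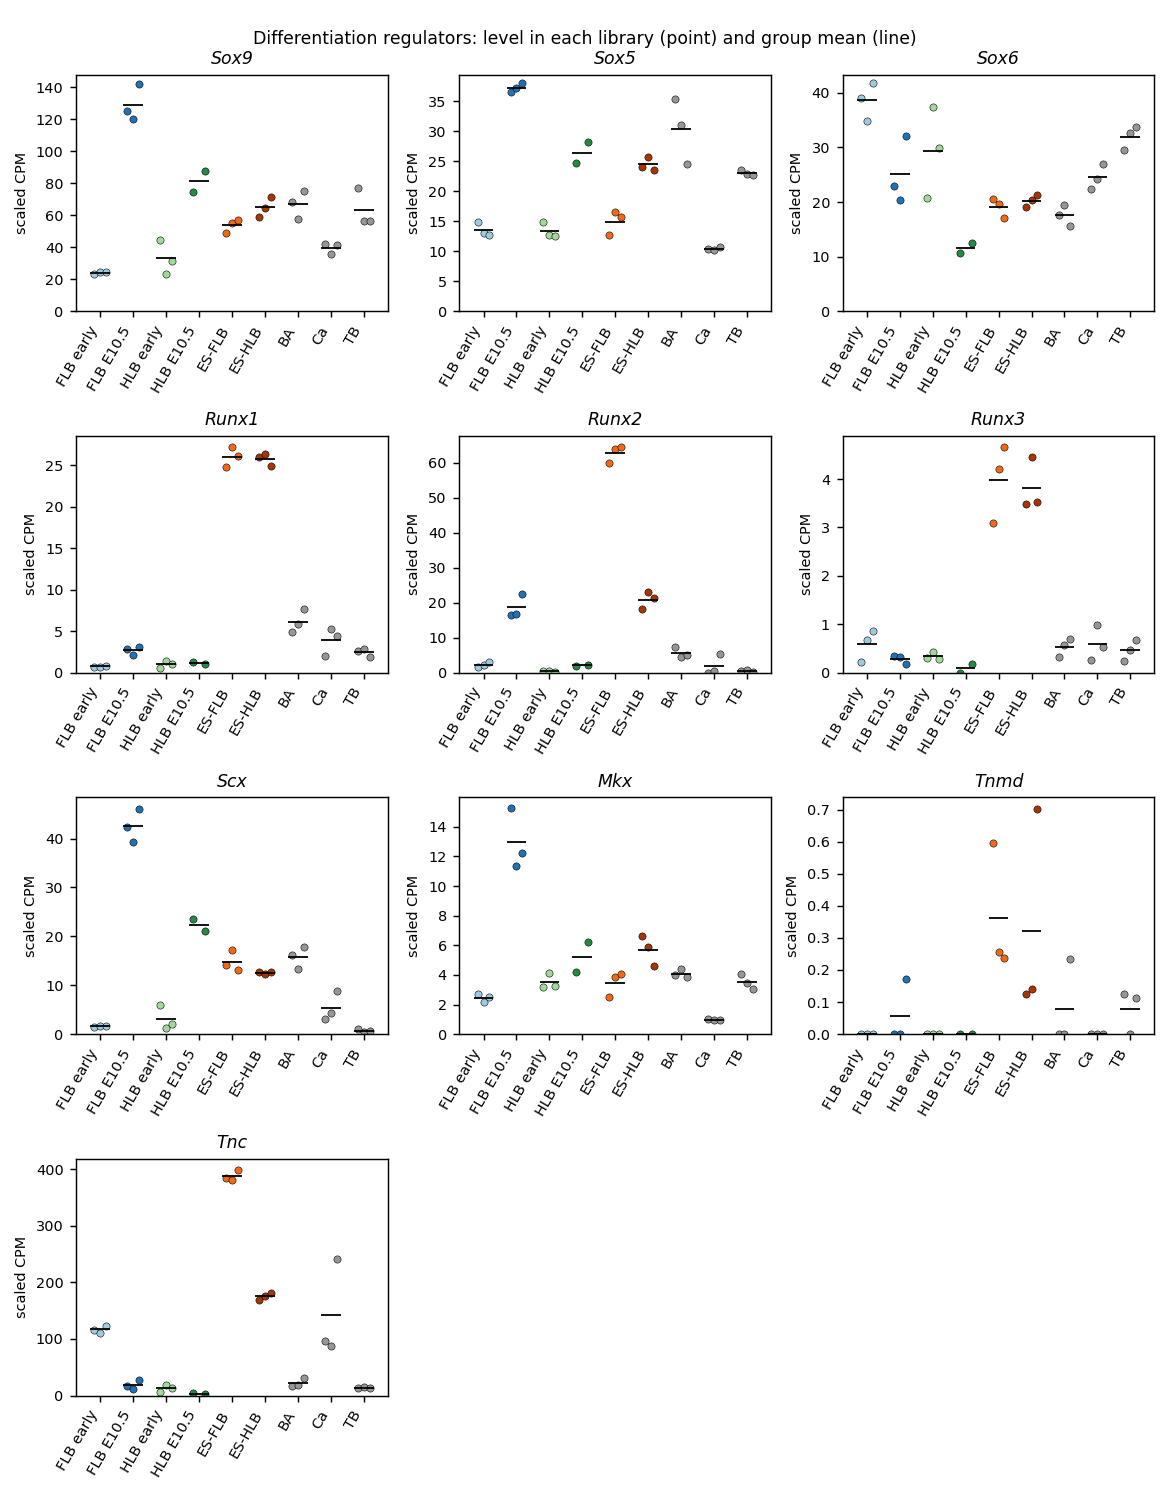
Level of the 10 genes in the 26 libraries, 1 panel per gene, with groups on the x axis and scaled CPM on the y axis. Points are libraries and lines are group means. Sox5, Sox9, Scx and Mkx are highest in the E10.5 FLBs, the 3 Runx genes and Tnc in ES–FLB or in both ES–LB types, and Tnmd stays at or below 0.7031 CPM throughout.

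Sox9 (chr11:112782210-112787757, plus strand, GRCm38.p6) rose between the early and the E10.5 FLBs, and the ES–LBs lay between those stages. Scaled CPM, the deposited CPM divided by a factor per library, was 23.2, 24.6 and 24.5 in the early FLBs and 125.0, 119.8 and 141.9 in the E10.5 FLBs. The early HLBs held 44.6, 23.6 and 31.5 CPM and the E10.5 HLBs 74.4 and 87.9 CPM. The ES–FLB level was 48.7, 55.4 and 57.0 CPM and that of ES–HLB 59.0, 64.3 and 71.4 CPM. No ES–LB library reached the lowest E10.5 LB or fell to the highest early LB. The largest value among the early LBs was that of replicate 1 of the early HLBs. In the other tissues Sox9 was at 57.5–75.4 CPM in BA, 35.5–41.9 CPM in Ca and 56.6–77.1 CPM in TB, so that the ranges of ES–HLB, BA and TB overlapped.

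Sox5 (chr6:143828425-144782287, minus strand) had the same order of stages in the FLBs. It was at 14.9, 13.0 and 12.7 CPM in the early FLBs and at 36.5, 37.2 and 38.1 CPM in the E10.5 FLBs. The early HLBs were at 15.0, 12.7 and 12.6 CPM and the E10.5 HLBs at 24.7 and 28.2 CPM. In ES–FLB it was 12.8, 16.5 and 15.6 CPM, within or just above the early range, and in ES–HLB 24.1, 25.8 and 23.6 CPM, within or just below that of the E10.5 HLBs. Sox5 was thus the member of the Sox trio in which the ES–LB types lay at different stages' levels.

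Sox6 (chr7:115470872-116040776, minus strand) ran the other way over time. It was at 39.1, 34.9 and 41.8 CPM in the early FLBs and at 22.9, 20.4 and 32.0 CPM in the E10.5 FLBs, with no overlap. The early HLBs held 20.8, 37.5 and 29.9 CPM and the E10.5 HLBs 10.6 and 12.6 CPM. ES–FLB libraries held 20.6, 19.7 and 17.1 CPM and ES–HLB libraries 19.1, 20.4 and 21.2 CPM, with overlapping ranges. Over the 26 libraries, log2 levels of Sox5 and Sox9 had a Pearson r of 0.84, and those of Sox6 with Sox5 and Sox9 −0.37 and −0.53. These are descriptions over libraries that share groups, as are all correlations below. Per kb of exon, Sox9 was the highest of the trio in the E10.5 FLBs at a mean level of 31.2 CPM per kb, while Sox5 and Sox6 ranged over group means of 0.73–2.59 and 0.78–2.60 CPM per kb.

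Runx1 (chr16:92601466-92826074, minus strand) was high in the ES–LBs and low in every embryonic tissue. It was at 24.8, 27.2 and 26.2 CPM in ES–FLB, and the ES–HLB libraries were at 25.9, 26.3 and 25.0 CPM. The early FLBs held 0.691, 0.729 and 0.862 CPM, the early HLBs 0.511, 1.47 and 1.02 CPM, the E10.5 FLBs 2.89, 2.14 and 3.10 CPM and the E10.5 HLBs 1.28 and 1.06 CPM. BA held 4.90, 5.89 and 7.64 CPM, and Ca and TB lay between 1.94 and 5.32 CPM. All 6 ES–LB libraries were above all 20 embryonic ones. Blood markers, which Runx1 accompanies in blood cells, were lower in the ES–LBs by the sums given above. Gata1, an erythroid factor, was at means of 0.0851 (ES–FLB) and 0.948 CPM (ES–HLB) against 2.76–5.83 CPM in the LB groups. The sums include red cell genes such as Hbb-y, Hba-x and Alas2. The part of blood cells in the Runx1 level was not tested.

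Runx2 (chr17:44495987-44814797, minus strand) differed between forelimb and hindlimb in embryo and culture alike. It was at 1.54, 2.29 and 3.12 CPM in the early FLBs and at 0.562, 0.380 and 0.339 CPM in the early HLBs. At E10.5 it was at 16.5, 16.9 and 22.6 CPM in the FLBs and at 1.83 and 2.30 CPM in the HLBs. Levels were 59.9, 64.0 and 64.5 CPM in ES–FLB, above the 18.2, 23.1 and 21.5 CPM of ES–HLB. The forelimb form was above the hindlimb form without overlap at both stages and in the ES–LBs. ES–HLB and the E10.5 FLBs overlapped. BA held 4.39–7.47 CPM, TB 0.342–0.696 CPM, and Ca 0, 0.420 and 5.24 CPM, the last being its replicate 3.

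Runx3 (chr4:135120645-135177990, plus strand) was low everywhere, at 3.10, 4.21 and 4.66 CPM in ES–FLB, while ES–HLB held 3.49, 4.46 and 3.52 CPM. Every embryonic library was between 0 and 0.979 CPM. Per kb of exon, Runx2 led the trio in ES–FLB with a mean level of 7.11 CPM per kb, against 2.17 for Runx1 and 0.797 for Runx3, whereas in ES–HLB Runx2 and Runx1 were at 2.37 and 2.14 CPM per kb. Runx1 and Runx3 had an r of 0.88 over the 26 libraries, Runx1 and Runx2 0.75, and Runx2 and Runx3 0.68. The shared partner Cbfb rose in both ES–LB types over the early LBs, by 0.78 ± 0.05 (log2, SE, adjusted p = 9.56e-11) in ES–FLB and by 0.48 ± 0.06 (1.52e-06) in ES–HLB.

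Bases upstream of the annotated starts of the 3 Runx genes are shown, with the RUNX motif ACCACA (either strand) in capitals. All 3 had higher levels in each ES–LB type than in the early LBs of its limb. Some passed the filter on low values through the ES–LBs alone (tests below), so a joint rise was not tested. The sequences are from RefSeq on GRCm38.p6, which gave promoter windows for 7 of the 10 members. Over all windows of 250 upstream bases, 14.0% held this motif. The window upstream of Runx1 is shown in part, since the rest lies in exons, and holds no match. That of Runx2 is shown for 30 bases around its match only, as it lies in the first exon of another Runx2 transcript. That of Runx3 holds 2 matches. Runx1 and Runx3 each have a second window, not shown, with no match, and 2 of the 6 windows of Sox6, which did not rise over the early LBs, hold the motif. A match is a description of letters, not a bound site.
Runx1, chr16:92826150-92826324, minus strand: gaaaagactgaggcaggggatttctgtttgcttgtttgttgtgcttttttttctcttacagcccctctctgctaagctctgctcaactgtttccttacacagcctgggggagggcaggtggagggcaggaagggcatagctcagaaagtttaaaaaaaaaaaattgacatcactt
Runx2, chr17:44814690-44814719, minus strand: gtgaggtcacaaACCACAtgattctgtctc
Runx3, chr4:135120395-135120644, plus strand: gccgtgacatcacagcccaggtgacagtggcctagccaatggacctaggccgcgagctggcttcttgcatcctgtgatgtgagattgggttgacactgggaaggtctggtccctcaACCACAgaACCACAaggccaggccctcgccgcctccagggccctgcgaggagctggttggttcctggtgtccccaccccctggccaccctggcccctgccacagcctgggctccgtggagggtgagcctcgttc

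Scx (chr15:76457411-76459468, plus strand) was low in the early LBs and rose to its highest levels at E10.5. It was at 1.44, 1.72 and 1.56 CPM in the early FLBs and at 42.3, 39.3 and 46.1 CPM in the E10.5 FLBs. The early HLBs held 5.92, 1.25 and 1.98 CPM, the first being replicate 1, and the E10.5 HLBs 23.6 and 21.1 CPM. ES–FLB libraries held 14.1, 17.1 and 13.0 CPM and ES–HLB libraries 12.7, 12.3 and 12.7 CPM. The ES–LBs were above all early and below all E10.5 LBs. BA was at 13.4–17.8 CPM, overlapping with ES–FLB, Ca at 3.07, 4.34 and 8.74 CPM, and TB at 0.348–1.12 CPM.

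Scx lies wholly inside Bop1 (chr15:76452988-76477249), a ribosome biogenesis gene on the minus strand, and shares 0 exon bases with it. Reads from Bop1 introns would therefore fall on Scx exons if strand were ignored. The library kit keeps strand, but the sources used here do not state the strand setting of the counting. Bop1 was at 164.1, 176.1 and 170.5 CPM in the early FLBs, where Scx was below 1.8 CPM, and at 90.3, 92.2 and 90.0 CPM in the E10.5 FLBs, where Scx was highest. The libraries of highest Bop1 level thus had low Scx, and the r of the 2 genes over the 26 libraries was −0.55. TB had 103.7–111.4 CPM of Bop1 with Scx at 0.348–1.12 CPM. Whether part of the Scx value comes from the other strand was not tested.

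**Figure D2:**
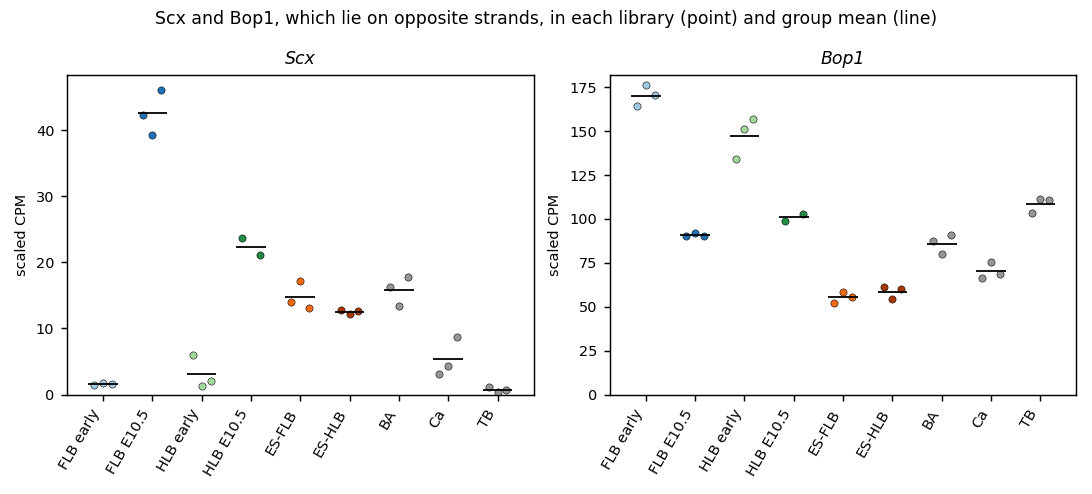
Scaled CPM of Scx (left) and of Bop1 (right), the gene around it on the opposite strand, in 9 groups, with points for libraries and lines for group means. The early FLBs have the highest Bop1 levels (164.1–176.1) and Scx below 1.8 CPM, while the E10.5 FLBs have Scx of 39.3–46.1 CPM and Bop1 of 90.0–92.2 CPM.

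Mkx (chr18:6934966-7004779, minus strand) was at 2.71, 2.19 and 2.48 CPM in the early FLBs and at 15.3, 11.3 and 12.2 CPM in the E10.5 FLBs. The early HLBs held 3.22, 4.13 and 3.28 CPM and the E10.5 HLBs 4.21 and 6.20 CPM. ES–FLB libraries held 2.50, 3.83 and 4.06 CPM and ES–HLB libraries 6.61, 5.85 and 4.57 CPM. The E10.5 FLBs were above every other library, and ES–HLB overlapped with the E10.5 HLBs. Tnmd (chrX:133851008-133865577, plus strand) never passed the filter on low values. It was at 0.239–0.596 CPM (ES–FLB), 0.125–0.703 CPM (ES–HLB) and between 0 and 0.235 CPM in the embryonic libraries, and no difference could be read at that depth.

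Tnc (chr4:63959785-64047015, minus strand) had a pattern unlike Scx, with an r between them of 0.01 over the 26 libraries. It was at 116.6, 110.7 and 123.2 CPM in the early FLBs and at 17.7, 12.0 and 28.2 CPM in the E10.5 FLBs. The early HLBs held 6.84, 18.6 and 13.5 CPM and the E10.5 HLBs 3.66 and 3.19 CPM. Tnc reached 384.0, 380.9 and 398.5 CPM in ES–FLB, and in ES–HLB 169.0, 175.3 and 180.7 CPM. By these library values, Tnc was lower at the later stage, and lower in hindlimb than in forelimb at each stage and in culture. It was higher in each ES–LB type than in the LBs of its own limb. The stage differences fell short of the threshold in the tests below. Ca held 97.2, 86.9 and 240.5 CPM, with replicate 3 high, and BA and TB lay between 12.8 and 30.5 CPM.

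The window upstream of Tnc is shown because Egr1, a factor known to act on tendon matrix genes, was higher in the sorted ES–LB cells than in the LBs. The 250 upstream bases hold 1 match, in capitals and starting 171 bases before the annotated start, to the EGR motif GCGNGGGCG (either strand), which 4.7% of all windows hold. The second windows of Runx1 and Runx3, not shown, also hold 1 EGR match each. Whether Egr1 acts on Tnc here was not tested.
Tnc, chr4:64047016-64047265, minus strand: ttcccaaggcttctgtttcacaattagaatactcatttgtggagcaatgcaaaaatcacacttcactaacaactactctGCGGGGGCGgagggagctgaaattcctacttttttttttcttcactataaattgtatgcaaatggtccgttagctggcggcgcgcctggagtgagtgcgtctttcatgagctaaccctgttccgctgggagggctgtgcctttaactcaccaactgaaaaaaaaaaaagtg

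Against the early FLBs, 7 of the 9 members tested passed an adjusted p of 0.001 in ES–FLB, 6 higher and 1 lower, where 66.2% of all 13140 genes tested did (29.3% higher, 36.9% lower). Runx2 rose by 4.53 ± 0.17 (log2 of CPM + 0.5, SE, n = 3 against 3, limma, adjusted p = 2.62e-10), Runx1 by 4.40 ± 0.14 (6.80e-14) and Scx by 2.87 ± 0.15 (2.91e-11). Runx3 rose by 2.09 ± 0.24 (7.99e-07), Tnc by 1.73 ± 0.05 (1.01e-14) and Sox9 by 1.14 ± 0.07 (4.17e-10). Sox6 fell by 1.00 ± 0.09 (2.89e-08). Sox5 (0.14 ± 0.12, 0.285) and Mkx (0.40 ± 0.19, 0.0628) did not pass. Runx1 and Runx3 passed the filter on low values through the ES–FLB libraries alone and so had to differ. The count of 7 includes these 2, as does the median absolute difference of the members tested (1.73, against 0.62 over all genes). Neither is therefore a free comparison with all genes.

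In ES–HLB against the early HLBs, 5 of 9 passed, all higher, where 60.6% of genes did (26.6% higher, 34% lower). Runx2 rose by 4.53 ± 0.17 (1.65e-11), Runx1 by 4.18 ± 0.21 (3.65e-10), Tnc by 3.81 ± 0.40 (7.95e-04), Runx3 by 2.36 ± 0.20 (6.52e-08) and Sox5 by 0.85 ± 0.10 (2.26e-06). Scx differed by 2.11 ± 0.49 (0.00957), Sox9 by 1.00 ± 0.25 (0.0133), Mkx by 0.61 ± 0.18 (0.0061) and Sox6 by −0.49 ± 0.19 (0.0393), short of the threshold. Runx2 and Runx3 had no early HLB library at 1 CPM and so had to differ, and the count of 5 includes them. Without replicate 1 of the early HLBs, the library nearer to E10.5, 8 members passed, 7 higher and 1 lower, among them Scx (2.65, 9.92e-11), Sox9 (1.23, 2.59e-07) and Sox6 (−0.71, 5.28e-06). Without any 1 of the ES–HLB libraries, 2 members passed, as Runx2 and Runx3 no longer reached the filter. Tnc did not pass then or without replicate 2 or 3 of the early HLBs.

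Against the E10.5 LBs, which share the ES–LB libraries with the comparisons above, Runx genes and Tnc were higher and Scx was lower in both ES–LB types. In ES–FLB 8 of 9 passed, 4 in each direction, where 52.7% of genes did (25.3% higher, 27.4% lower). Tnc rose by 4.38 ± 0.34 (3.50e-04), Runx1 by 3.06 ± 0.15 (3.40e-16), Runx3 by 2.52 ± 0.26 (1.99e-09) and Runx2 by 1.74 ± 0.10 (1.07e-14). Mkx fell by 1.78 ± 0.18 (1.31e-09), Scx by 1.51 ± 0.10 (3.47e-13), Sox5 by 1.30 ± 0.10 (6.38e-12) and Sox9 by 1.25 ± 0.07 (4.21e-15). Runx3 had no E10.5 FLB library at 1 CPM and so had to differ. Sox6 differed by −0.36 ± 0.13 (0.0194). With all libraries in one model, Runx2 (adjusted p = 0.00897) and Scx (0.0011) did not pass. Tnc lost its call in 5 alternatives.

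In ES–HLB against the E10.5 HLBs 7 of 9 passed, 5 higher and 2 lower, where 54.5% of genes did (26.4% higher, 28.1% lower). Tnc rose by 5.48 ± 0.09 (9.82e-34), Runx1 by 3.97 ± 0.17 (5.97e-21), Runx2 by 3.06 ± 0.18 (1.50e-17), Runx3 by 2.89 ± 0.30 (1.07e-10) and Sox6 by 0.78 ± 0.13 (3.08e-06). Runx3 had no E10.5 HLB library at 1 CPM and so had to differ. Scx fell by 0.81 ± 0.13 (1.48e-06) and Sox9 by 0.32 ± 0.08 (8.41e-04). Sox5 (−0.11 ± 0.11, 0.381) and Mkx (0.12 ± 0.22, 0.621) did not pass. The Sox9 call was lost under 10 alternatives, for instance on CPM as deposited (−0.17, 0.0788). The Scx call was lost with all libraries in one model (0.0838), and that of Sox6 in limma without trend and robust estimation (0.00137).

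**Figure D3:**
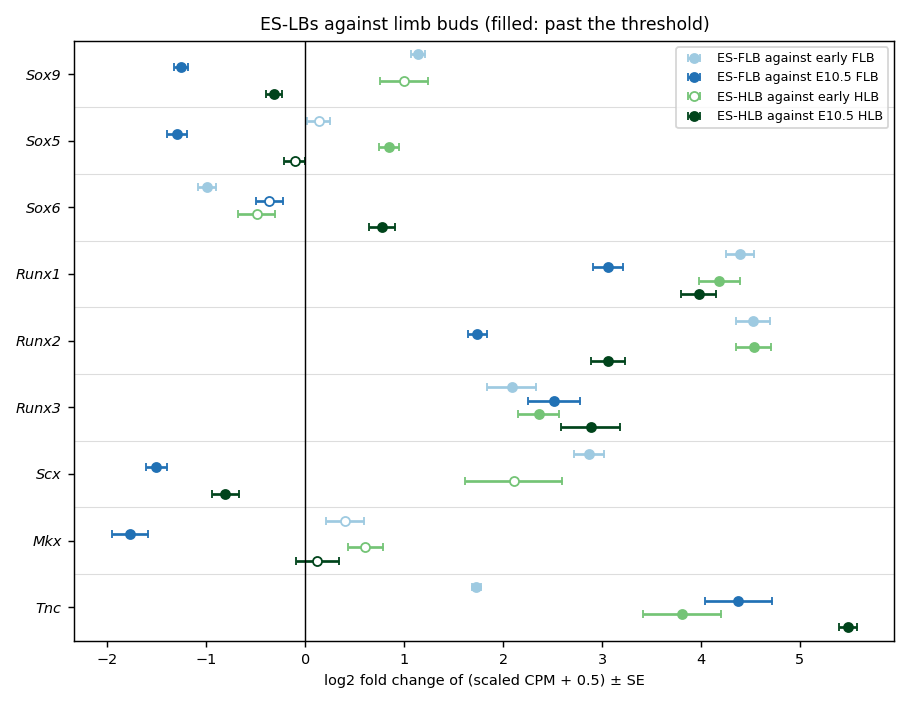
Log2 difference (CPM + 0.5, x axis) of each tested member in ES–FLB and ES–HLB against the early and the E10.5 LBs of the same limb, with error bars of 1 SE and filled points for those past an adjusted p of 0.001. The Runx genes and Tnc lie right of 0 (higher in ES–LBs) against both stages, and Scx and Sox9 right of 0 against the early and left of 0 against the E10.5 LBs.

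Between stages, 6 of the 8 members tested in the FLBs rose (adjusted p of 0.001), where 43.8% of genes passed, 15.8% higher and 28% lower. Scx rose by 4.38 ± 0.13 (2.21e-14), Runx2 by 2.79 ± 0.20 (4.93e-09), Sox9 by 2.39 ± 0.07 (1.70e-14), Mkx by 2.18 ± 0.16 (2.16e-09), Sox5 by 1.43 ± 0.09 (2.40e-10) and Runx1 by 1.34 ± 0.23 (5.82e-05). Runx1 had no early FLB library at 1 CPM and so had to differ. Tnc differed by −2.65 ± 0.34 (0.0026) and Sox6 by −0.63 ± 0.16 (0.00673), short of the threshold. Tnc passed in 5 alternatives, such as all libraries in one model (5.43e-06), and Sox6 in 2. Somite and sclerotome markers, known to accompany Sox9 and Scx, summed to 45.3–50.0 CPM in the early and 136–164 CPM in the E10.5 FLBs, and muscle precursor markers to 10.6–21.8 and 44.8–50.3 CPM. Their part in the rise was not tested.

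In the HLBs 1 of 7 members passed, where 5.02% of genes did (1.55% higher, 3.47% lower). It was Sox5, which rose by 0.95 ± 0.12 (3.58e-04). Scx (2.91 ± 0.60, 0.0255), Sox9 (1.32 ± 0.30, 0.0352), Tnc (−1.68 ± 0.39, 0.021), Sox6 (−1.27 ± 0.23, 0.00603), Mkx (0.48 ± 0.22, 0.115) and Runx1 (0.21 ± 0.33, 0.664) did not pass. Without replicate 1 of the early HLBs 5 passed, namely Scx (3.45, 5.24e-07), Sox9 (1.55, 1.73e-05) and Sox5 (1.03, 5.12e-05) as higher and Tnc (−2.06, 1.25e-05) and Sox6 (−1.49, 1.03e-05) as lower. Without replicate 3 of the early HLBs or either E10.5 HLB, 0 passed. The stage differences of the limb types were not tested against each other.

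**Figure D4:**
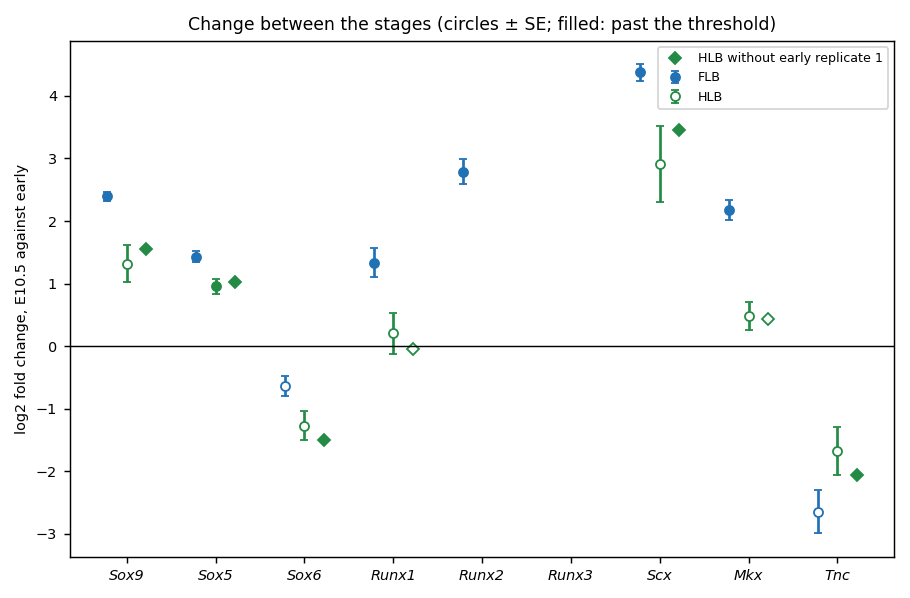
Log2 difference (CPM + 0.5, y axis) between E10.5 and early LBs for each member tested (x axis). Circles with error bars of 1 SE show the FLBs and the HLBs. Diamonds show the HLBs without replicate 1 of the early HLBs. Filled points are those past an adjusted p of 0.001. In the FLBs 6 members lie above 0 and pass, with Scx largest at 4.38, whereas among the HLB circles that of Sox5 passes.

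Between limb types at E10.5, all 8 members tested were lower in the HLBs (adjusted p of 0.05), where 26.1% of genes passed, 10.9% lower and 15.2% higher. Runx2 fell by 2.89 ± 0.19 (n = 2 against 3, 2.66e-18), Tnc by 2.25 ± 0.27 (2.57e-05), Mkx by 1.25 ± 0.19 (5.36e-07) and Sox6 by 1.06 ± 0.15 (2.07e-07). Runx1 fell by 0.93 ± 0.32 (0.0242), Scx by 0.91 ± 0.10 (2.72e-10), Sox9 by 0.67 ± 0.07 (1.44e-09) and Sox5 by 0.49 ± 0.10 (1.67e-04). All 8 passed also with the left-out library kept where it has values. The Runx1 call was lost without replicate 1 or 3 of the FLBs or replicate 3 of the HLBs (adjusted p up to 0.106), that of Scx with all libraries in one model (0.116), and that of Sox6 in limma without trend and robust estimation (0.0516).

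Markers of some other cells also differed between the E10.5 LBs. Somite and sclerotome markers summed to 136–164 CPM in the FLBs and 64.7–67.7 CPM in the HLBs, with the sclerotome factor Pax1 at means of 44.1 and 4.51 CPM. Muscle precursor markers summed to 44.8–50.3 and 20.2–24.2 CPM, with Myod1 at 8.86 and 0.266 CPM and Myog at 7.20 and 0.550 CPM. Neural crest, glia and neuron markers summed to 36.8–44.6 and 24.0–24.3 CPM. Endothelial markers went the other way, at 324–333 CPM in the FLBs and 364–380 CPM in the HLBs. Their part in the member differences was not tested.

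At the early stage 2 of 7 members passed, both lower in the HLBs, where 20.1% of genes did (9.03% higher, 11.1% lower). Tnc fell by 3.23 ± 0.39 (0.00858) and Runx2 by 1.57 ± 0.24 (0.00117), the latter with no early HLB library at 1 CPM and lost with all libraries in one model (0.0528). Sox5 (−0.01 ± 0.11, 0.959), Sox6 (−0.42 ± 0.22, 0.241), Sox9 (0.41 ± 0.23, 0.268), Scx (0.55 ± 0.46, 0.455) and Mkx (0.45 ± 0.16, 0.0747) did not pass. Without replicate 1 of the early HLBs both calls held (Tnc −2.84, 5.69e-05, and Runx2 −1.67, 7.40e-04). Without any 1 of the early FLBs Tnc passed and Runx2 no longer reached the filter. Without replicate 2 of the early HLBs 4 passed, with Sox6 (−0.62, 0.0333) and Sox9 (0.63, 0.0115) added.

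In the ES–LBs 5 of 9 members differed between limb types (adjusted p of 0.05), where 25.1% of genes did (12.8% higher, 12.3% lower). Runx2 was lower in ES–HLB by −1.57 ± 0.08 (1.34e-15) and Tnc by −1.15 ± 0.04 (4.20e-20). Sox5 was higher by 0.70 ± 0.11 (5.38e-06), Mkx by 0.65 ± 0.20 (0.0135) and Sox9 by 0.27 ± 0.07 (0.00643). Scx (−0.21 ± 0.12, 0.217), Sox6 (0.08 ± 0.10, 0.629), Runx1 (−0.02 ± 0.09, 0.927) and Runx3 (−0.05 ± 0.20, 0.903) did not pass. Without replicate 1 of ES–FLB, Sox9 (0.0647) and Mkx (0.112) lost their calls, as Mkx did without replicate 1 of ES–HLB (0.09) and Sox9 without its replicate 3 (0.0828), and Runx2 was at an adjusted p of 0.052 with all libraries in one model. Somite and sclerotome markers were at 35.3–44.3 CPM (ES–FLB) and 68.3–75.2 CPM (ES–HLB), and neural crest, glia and neuron markers at 61.7–67.4 and 35.3–45.8 CPM. Within the first list Meox2 (1.63 ± 0.09, 1.11e-14) and Tcf15 (1.23 ± 0.30, 0.00209), factors of the somite, were higher in ES–HLB, whereas the sclerotome factors Pax1 (−2.59 ± 0.24, 3.99e-10) and Nkx3-2 (−1.68 ± 0.33, 2.40e-04) were lower. Blood markers (given above), endothelial markers (28.1–33.2 and 43.6–50.0 CPM), surface ectoderm markers (86.2–122 and 142–161 CPM) and neural tube markers (up to 28.9 CPM) summed to more in ES–HLB. Their part was not tested.

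The difference between limb types was then compared between the ES–LBs and the early LBs in one model. It differed for 2 of 9 members, where 22.6% of genes passed (12.7% higher, 9.92% lower). For Sox5, hindlimb minus forelimb was greater in the ES–LBs by 0.71 ± 0.16 (0.0021), and for Tnc by 2.08 ± 0.41 (0.00688), as the Tnc deficit of the hindlimb form was smaller in culture. For Runx2 the difference of differences was 0.00 ± 0.24 (0.992), with −1.57 in both settings. That value turned to −0.69 (0.00575) with a pseudocount of 2, as the early HLB levels lie close to the pseudocount.

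**Figure D5:**
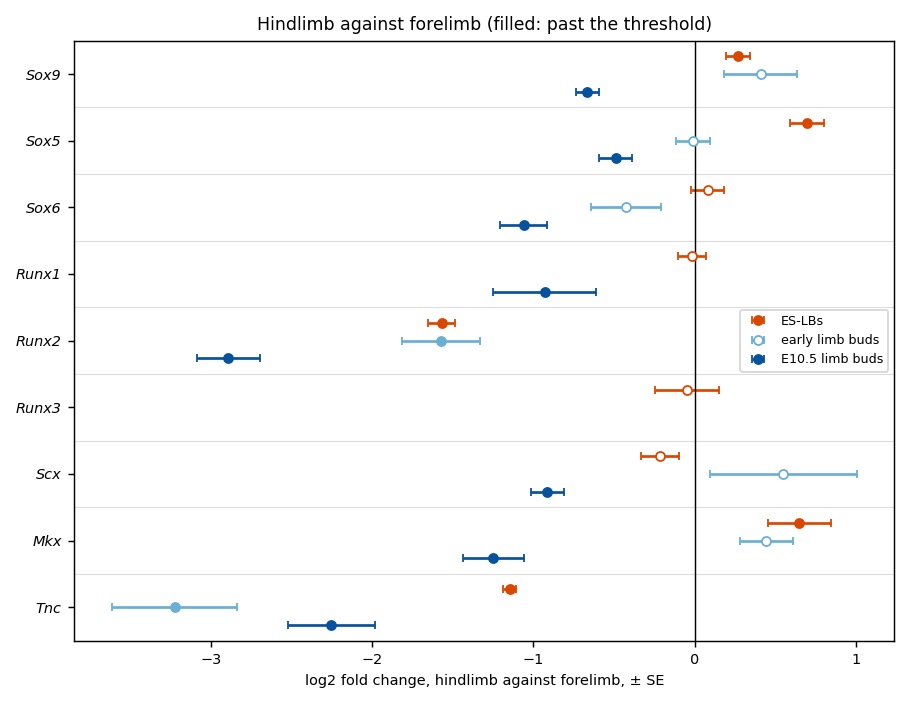
Log2 difference (CPM + 0.5, x axis) of hindlimb minus forelimb for each member tested in the early LBs, the E10.5 LBs and the ES–LBs, with error bars of 1 SE and filled points for those past an adjusted p of 0.05. Runx2 and Tnc lie left of 0 (lower in hindlimb) in all 3, all 8 members tested lie left of 0 at E10.5, and Sox5, Sox9 and Mkx lie right of 0 in the ES–LBs.

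Against the other tissues, whose contrasts share the model over 26 libraries, the E10.5 LBs differed from BA in 6 of 9 members, 3 higher and 3 lower, where 33.4% of genes did (17.2% higher, 16.2% lower). Mkx (0.92, 7.62e-05), Scx (0.95, 0.0302) and Sox9 (0.61, 0.00539) were higher and Runx1 (−1.51, 1.17e-06), Tnc (−1.33, 0.00457) and Runx3 (−0.61, 0.0468) lower. Runx3 reached 1 CPM in no library of the E10.5 LBs, BA or Ca and entered these tests through the ES–LBs, so its calls rest on values of 0 to 0.979 CPM, close to the 3-read limit. The Scx call was lost in 6 alternatives and that of Runx3 in 7. Against Ca all 9 passed, 5 higher and 4 lower, where 76.9% of genes did (39.8% higher, 37.1% lower), with Mkx at 2.55, Scx at 2.53 and Runx2 at 2.33 higher and Tnc at −3.89 lower. Against TB 6 passed, 5 higher and 1 lower, where 46.2% did (23.7% higher, 22.5% lower), with Scx higher by 4.74 (3.36e-10) and Runx2 by 2.80, the latter through the LB libraries alone.

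The ES–LBs differed from BA in 5 of 9 members, 4 higher and 1 lower, where 69.7% of genes did (33.2% higher, 36.5% lower). Tnc was higher by 3.60, Runx2 by 2.60, Runx3 by 2.09 and Runx1 by 2.01, and Sox5 was lower by −0.64. Against Ca all 9 passed, 8 higher and 1 lower, where 80.9% did (41.3% higher, 39.5% lower). The exception in direction was Sox6 (−0.31), whose call was lost in 8 alternatives. Tnc was higher than in Ca by 1.04 (0.00614), by 1.498 without replicate 3 of Ca, and by 0.77 (0.0575) without replicate 2. Against TB 7 passed, 5 higher and 2 lower, where 76% did (36.4% higher, 39.6% lower), led by Runx2 (5.20), Tnc (4.21) and Scx (3.58). Runx3 passed the filter through the ES–LBs alone in all 3 contrasts, as did Runx2 against TB.

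Of 27 genes of cartilage matrix and chondrocytes, 25 are in the table. In this list and those below, genes low in the LBs could pass the filter through the ES–LB libraries alone. Such genes could only be called higher in the ES–LBs, and the counts include them. Between stages of the FLBs 12 rose and 1 fell of 17 tested, and at E10.5 13 of 17 were lower and 1 higher in the HLBs, as was the direction of Sox9 in both comparisons. Of all genes, 15.8% rose and 28% fell between those stages, and 10.9% were lower and 15.2% higher in the HLBs. In ES–FLB 11 of 19 rose and 5 fell against the early FLBs, and 3 rose and 11 fell against the E10.5 FLBs, where 29.3% and 36.9%, and 25.3% and 27.4%, of all genes did. In ES–HLB 10 of 17 rose and 2 fell against the early HLBs, and 8 of 16 rose and 2 fell against the E10.5 HLBs, where 26.6% and 34%, and 26.4% and 28.1%, of all genes did. Between stages of the HLBs 1 of 14, Col9a1 (0.80 ± 0.11, 6.19e-04), rose and 0 fell, where 5.02% of all genes passed. Col2a1, the main cartilage collagen and a Sox9 target, was at means of 153.3 and 304.4 CPM in early and E10.5 FLBs, 91.9 CPM in ES–FLB and 189.4 in ES–HLB. It was higher in ES–HLB than in ES–FLB by 1.04 ± 0.06 (1.34e-15), and Col9a1, a collagen that binds to it, by 1.42 ± 0.08 (7.97e-16). Hapln1, which links aggrecan to hyaluronan, fell by 4.51 ± 0.10 (4.33e-15) in ES–FLB against the early FLBs, and by 3.23 ± 0.17 (1.71e-07) in ES–HLB against the early HLBs. Acan and Comp, markers of mature cartilage, had group means of at most 1.51 and 0.449 CPM, close to the limit of detection.

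Of 24 bone and hypertrophic cartilage genes, 8 of 18 tested rose and 5 fell in each ES–LB type against the early LBs, while 9 rose and 3 fell in ES–FLB and 7 rose and 3 fell in ES–HLB against the E10.5 LBs. Of all genes, 66.2% passed in ES–FLB (29.3% higher, 36.9% lower) and 60.6% in ES–HLB (26.6% higher, 34% lower) against the early LBs. Against the E10.5 LBs 52.7% (25.3% higher, 27.4% lower) and 54.5% (26.4% higher, 28.1% lower) passed. Spp1, the matrix protein osteopontin, rose by 2.51 ± 0.28 (9.99e-07) in ES–FLB and 2.95 ± 0.21 (6.60e-09) in ES–HLB over the early LBs, having reached 1 CPM in none of the early LB libraries. Alpl, the alkaline phosphatase of mineralisation, fell by 1.502 ± 0.15 (6.63e-08) and 0.70 ± 0.15 (4.75e-04). Sp7, the osteoblast factor that acts after Runx2, was at group means of 0.513–2.26 CPM and differed by −0.07 ± 0.29 (0.835) and −0.10 ± 0.25 (0.725). Between the ES–LB types 3 of 19 were higher and 7 lower in ES–HLB, where 12.8% and 12.3% of all genes were.

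Of 21 tendon genes that the study's text does not name as such, 14 of 19 tested rose and 2 fell in ES–FLB, and 14 of 20 rose and 0 fell in ES–HLB, against the early LBs. Of all genes, 29.3% rose and 36.9% fell in ES–FLB, and 26.6% rose and 34% fell in ES–HLB. The median differences of the list were 2.26 and 2.18, against −0.08 and −0.07 over all genes. Kera, Six2, Fgf4, Htra3 and Egr3 were too low to be tested between the early LBs. Those of them tested here passed the filter through ES–LB libraries, and the counts and medians include them. Against the E10.5 LBs 16 of 19 and 17 of 20 rose, where 25.3% and 26.4% of all genes did, although Scx fell there in both. Col3a1, a fibrillar collagen, was at means of 3813 and 3996 CPM in ES–FLB and ES–HLB and 518.8–602.9 CPM in the LB groups, and rose by 2.89 ± 0.12 (8.11e-06) and 2.92 ± 0.05 (3.30e-14) over the early LBs. Six2, a homeobox factor also found in tendon mesenchyme, rose by 5.53 ± 0.14 (4.42e-15) and 4.55 ± 0.15 (5.32e-12), with 1 early LB library at 1 CPM or more. Fmod, the tendon proteoglycan fibromodulin, fell by 2.40 ± 0.21 (1.50e-08) in ES–FLB but rose by 2.13 ± 0.18 (2.35e-07) in ES–HLB, at means of 0.485 and 22.7 CPM. Between the ES–LB types 11 of 20 were higher and 6 lower in ES–HLB, where 12.8% and 12.3% of all genes were. Fmod was higher by 4.56 ± 0.18 (1.12e-18) and Tgfb2, a signal for tendon progenitors, lower by −1.23 ± 0.05 (1.74e-19).

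The study's text names Tnc and 4 further tendon genes (Col12a1, Col6a1, Dcn and Egr1) as higher in the ES–LBs on these libraries, so their direction against the LBs is not independent evidence. All 4 further genes rose in ES–LBs in each of the 4 comparisons with LBs. Egr1 was at means of 610.3 (ES–FLB) and 440.4 CPM (ES–HLB) against 2.62–12.0 CPM in the LB groups. The ES–LB cells were sorted by FACS and the LBs, as far as stated, were not. Effects of this handling, of culture and of cell type on Egr1 cannot be told apart. Of the 4, 3 were higher in ES–HLB than in ES–FLB and Egr1 differed by −0.45 ± 0.22 (0.25), whereas Tnc and Runx2 were lower there and Scx did not differ past the threshold. Col6a1, a chain of the pericellular collagen VI, was higher in ES–HLB by 1.05 ± 0.04 (5.25e-18).

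Of 9 joint interzone genes, 6 of 8 tested rose and 2 fell in ES–FLB against the early LBs. In ES–HLB 5 of 8 rose and 1 fell. Of all genes, 66.2% passed in ES–FLB (29.3% higher, 36.9% lower) and 60.6% in ES–HLB (26.6% higher, 34% lower). Gdf5, a growth factor that marks forming joints, was at means of 5.07 and 2.81 CPM in the E10.5 FLBs and HLBs but 0.281 and 0.218 CPM in ES–FLB and ES–HLB. Osr1, a factor of early joint and connective tissue cells, rose by 4.58 ± 0.10 (7.69e-16) and 3.81 ± 0.15 (7.56e-11). Nog, the BMP antagonist noggin, rose by 1.91 ± 0.20 (1.30e-07) and 1.64 ± 0.22 (6.46e-06), with no early HLB library at 1 CPM.

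Over the 26 libraries the genes most like each member were found by Pearson's r of log2 levels among 12695 or 12696 genes. For the Sox genes these were Rtkn (0.90), Plxnb1 (0.89) and Enpp3 (0.88) for Sox5, Dact2 (0.80) and Myc (0.77) for Sox6, and Smox (0.90), Mad2l2 (0.89) and Arhgap24 (0.88) for Sox9. Runx1 was nearest to AW551984 (0.98), Fam110b (0.97) and Cic (0.97), Runx2 to Astn2 (0.96), Robo1 (0.94) and Ptprd (0.93), and Runx3 to Eda2r (0.96), Lonrf1 (0.96) and Pnpla6 (0.96). Scx was nearest to Itpkb (0.96), Tcf7l2 (0.95) and Hspa12b (0.94). Mkx was nearest to Gas2 (0.89), a gene whose symbol the table gives as a date (0.87) and Papss1 (0.86), and Tnc to Gria3 (0.93), Sdk2 (0.92) and Adamts1 (0.91). Tnmd, at a few reads per library, was nearest to Ccdc60 (0.82), Scn3a (0.81) and Anks3 (0.81). The libraries of a group share their tissue, so these values describe group profiles.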

How the data were processed

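RNA of 27 libraries was sequenced from TruSeq stranded mRNA as single-end reads. Per the submitters' notes the authors used FastQC 0.11.5, HISAT2 2.0.4 on mm10, Cuffdiff (Cufflinks 2.1.1) and edgeR 3.16.2, and deposited CPM that sum to 1000000 in each library. Groups were taken from the sample labels.

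Libraries were scaled by an unweighted trimmed mean of log ratios (30% and 5% trimmed) over 26 libraries. Genes reaching 1 CPM in 3 or more libraries of a fit were tested on log2(CPM + 0.5), which understates changes of low genes, with limma 3.58.1 (trend, robust) in R 4.3.3 and Benjamini-Hochberg adjustment. Thresholds were an adjusted p of 0.001 (ES–LBs against LBs, stages) and 0.05 (others). All 26 libraries entered the contrasts with the 3 other tissues. The tests were checked on simulated data. Tables were read in Python 3.11.15 with pandas 2.3.3 and numpy 2.4.6.

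Genes named are the members, Bop1, list genes a result turns on, and for each member the 3 genes of highest r among those with a group mean of at least 4 CPM. Results of some single genes are left out here. Members and lists were chosen with earlier results of these data known. Positions are from RefSeq and exon lengths from GENCODE vM21. Alternatives were other scalings, filters and pseudocounts, limma without trend and robust estimation, one model for all libraries, the replicate block, the left-out library kept, and each library left out.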

Additional observations from a re-analysis of the deposited data

Results flagged for a closer look

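Of the members, 2 had a difference between hindlimb and forelimb that was not the same in the ES–LBs as in the early LBs, by limma's test of the difference of differences (adjusted p of 0.05, 12 libraries). For Sox5 the value was 0.71 on the log2 scale (adjusted p = 0.0021), from 0.70 in the ES–LBs and −0.01 in the early LBs. For Tnc it was 2.08 (0.00688), from −1.15 in the ES–LBs and −3.23 in the early LBs. Without replicate 1 of the early HLBs the values were 0.79 (9.41e-04) for Sox5 and 1.69 (1.52e-06) for Tnc.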

How the results depend on the processing

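Of 93 called differences of members, 73 kept their call under every alternative in which the member was tested. Calls lost under at least 1 numbered 20, and 0 reversed. Of 45 not called, 18 passed the threshold under at least 1 alternative and 12 changed sign. An alternative that took a member below the filter was not counted. For ES–HLB against the early HLBs this left 12 alternatives for Runx2 and 11 for Runx3, against 15 for Sox5. On CPM as deposited, all genes shifted by up to 0.31 (log2), the largest shift being that of ES–FLB against the early FLBs, where calls went from 3852 higher and 4847 lower to 5539 and 3201. The split also moved by over 10 points for ES–HLB against the early (4820 and 2996, from 3507 and 4485) and E10.5 HLBs (4196 and 2618, from 3397 and 3615), early HLBs against FLBs (1636 and 1012, from 1135 and 1391), E10.5 HLBs against FLBs (923 and 2046, from 1913 and 1371), stages of the FLBs (3503 and 1722, from 2025 and 3583) and HLBs (253 and 254, from 193 and 432), E10.5 LBs against BA (1622 and 3003, from 2489 and 2336) and TB (2650 and 3995, from 3420 and 3254), and the limb type difference (1402 and 1747, from 1731 and 1352).

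In limma without trend and robust estimation, genes called numbered 3877 for ES–FLB against the E10.5 FLBs (6943 in the report's fit), 3048 for ES–HLB against the E10.5 HLBs (7012), 853 for E10.5 HLBs against FLBs (3284), 3001 for the FLB stages (5608) and 9 for the HLB stages (625), with 3 members between the ES–LB types and 0 of 7 in the HLB stages (adjusted p of Sox5 0.0139). With all libraries in one model, 3 members were called between the ES–LB types, 1 between the early LBs and 4 in the HLB stages, with 1705 genes there. A filter at 5 CPM left 1 member between the early LBs, and no filter left 153 genes and 0 members in the HLB stages. The cause was not tested.

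Signs that changed were all of values not called: on CPM as deposited Sox5 in ES–HLB against the E10.5 HLBs (0.041), Sox5 between the early LBs (0.040) and the limb type difference of Runx2 (−0.093), the last also with median of ratios scaling (−0.023) and a pseudocount of 2 (−0.688), and Runx1 in the HLB stages with the left-out library kept (−0.083).

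With each library left out in turn, members called ranged from 2 to 8 for ES–HLB against the early HLBs, 3 to 5 between the ES–LB types, 1 to 4 between the early LBs, 0 to 5 in the HLB stages and 2 to 4 for the limb type difference, and genes called from 2168 to 2879 between the E10.5 LBs, 1384 to 2326 between the early LBs and 7 to 1397 in the HLB stages. A group left with 1 library was assumed to vary like the others. The count of 2 for ES–HLB against the early HLBs came with Runx2 and Runx3 below the filter. Values that changed sign ranged from −0.081 to 0.179 (Sox5) and −0.139 to 0.027 (Sox6) for E10.5 LBs against BA, −0.05 to 0.016 (Runx1) and −0.198 to 0.062 (Runx3) between the ES–LB types, −0.131 to 0.376 (Mkx, ES–HLB against E10.5 HLBs), −0.166 to 0.056 (Sox9, ES–LBs against TB), −0.05 to 0.43 (Runx1, HLB stages), −0.088 to 0.061 (Sox5, early LBs), and, for the limb type difference, −0.473 to 0.007 (Runx1), −0.196 to 0.218 (Runx2) and −0.361 to 0.093 (Sox9).

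Replicate numbers did not pair the samples, as deviations of same-numbered libraries had r of −0.11 to 0.11. With the replicate block, 5 members and 1379 genes were called in the HLB stages, and the Tnc calls of ES–HLB against the early HLBs (adjusted p = 0.00699) and of ES–FLB against the E10.5 FLBs (0.00632) were lost. Only between the ES–LB types did every library correlate best with its own number among comparisons with 3 pairs.

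A count test (edgeR, DESeq2) was not run, since 93.1% to 99.2% of values lay within 0.05 of whole reads but the lowest values were fractions of a read. Low depth limits Tnmd and, in the embryonic tissues, Runx3.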
